A study of Mus musculus with 6 samples.

Results

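Ephrins are the membrane-bound ligands of the Eph receptor tyrosine kinases. All 8 mouse ephrin genes were examined in Olig2-/- (Olig2 ko) and Olig2+/+ (Olig2 wt) embryos: Efna1 to Efna5 of the A class and Efnb1 to Efnb3 of the B class. Every non-control probe set of the Affymetrix MOE430 2.0 array whose annotation gave 1 of these symbols and no other was taken, without regard to its values. This gave 8 of the 18193 genes named on the array, and 17 of 45037 probe sets, 9 for ephrin-A genes and 8 for ephrin-B genes. Efnb2 had 4 probe sets, Efnb1 had 3, Efna1, Efna2, Efna3 and Efna5 had 2 each, and Efna4 and Efnb3 had 1 each.

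The study compared gene expression in embryos lacking the transcription factor Olig2, which acts in ventral neural progenitors, with that in their wild-type counterparts. RNA came from E13.5 (the embryonic day), from tissue that the sample labels call ventral telencephalon and the series description calls ventral forebrain. The 6 arrays analysed here are Olig2 ko replicates 2, 4 and 5 and Olig2 wt replicates 1, 4 and 5 (KO2, KO4, KO5, WT1, WT4 and WT5 from here on). Each array was hybridised with RNA pooled from 3 brains, starting from 6 ug of total RNA. The labels give no strain, sex or litter, and describe the mutation only as Olig2-/-, with no driver line or treatment in either genotype. The series description states 5 replicates per genotype, and the replicates not listed above were not analysed here. Nothing in the labels says that pools of 1 genotype came from separate litters, so p-values measure the spread between these pools.

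Ephrin-A proteins are held in the membrane by a lipid anchor and bind mainly EphA receptors, whereas ephrin-B proteins span the membrane and bind mainly EphB receptors and EphA4. Binding signals in both directions, forward into the cell with the receptor and in reverse into the cell with the ephrin. In the developing forebrain these contacts are known for sorting cells at boundaries, guiding thalamic and cortical axons, steering migrating interneurons and patterning blood vessels.

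Values are log2 expression per probe set, so a difference of 1 is a doubling. Probe sets bind their targets with unequal strength, and levels are therefore compared between arrays and never between probe sets. A probe set was kept for testing when it lay above its own array's median on at least 3 of the 6 arrays. This kept 22565 probe sets, 14 of the ephrin ones among them. The 3 ephrin probe sets left out were 1448510_at of Efna1, 1455344_at of Efna3 and 1421796_a_at of Efna5. Genotypes were compared with limma, with Benjamini-Hochberg adjustment over all 22565. Array medians lay between 3.14 and 3.19, and the number of arrays limits the precision.

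The targeted gene was checked first. Olig2 (1416232_at) read 7.48, 7.53 and 7.76 on KO2, KO4 and KO5, against 8.20, 8.22 and 8.42 on WT1, WT4 and WT5. Every Olig2 ko array was below every Olig2 wt array, by 0.69 on average or 1.62-fold, and Olig2 itself did not pass the adjusted threshold (limma adjusted p = 0.511). Signal remained in Olig2 ko, and whether its probes lie within the deleted part is not stated, so this checks the labels only in direction. Of the marker lists used, 11 genes of thalamus averaged 5.84, 6.07 and 6.13 on the Olig2 ko arrays, against 6.49, 6.74 and 6.45 on the Olig2 wt arrays, with no overlap. In the same way 9 genes of cortex averaged 7.00, 7.19 and 7.04 in Olig2 ko, against 6.88, 6.95 and 6.92 in Olig2 wt, with Emx1 too dim to be kept. This cortex mean covers unlike members. Of their 15 probe sets, 11 were higher and 4 lower in Olig2 ko, with differences of -0.37 to 0.63. Over all probe sets 50.5% were higher. The 13 ventral telencephalon genes measured ranged from 7.97 to 8.06 in Olig2 ko and from 7.96 to 8.09 in Olig2 wt, with Nkx2-1 too dim to be kept. In the other lists the groups overlapped. Blood (5 genes) ranged from 7.95 to 8.48 in Olig2 ko and 7.71 to 8.45 in Olig2 wt, and the mean of 4 microglia genes differed by 0.12. Meninges (4 genes, with the other 8 listed too dim to be kept) ranged from 5.22 to 6.91 in Olig2 ko and 5.50 to 6.38 in Olig2 wt, and radial glia (10 genes) from 8.62 to 8.63 in Olig2 ko and 8.61 to 8.69 in Olig2 wt. WT1 had the highest mean of 14 neuron genes, 9.65, and the lowest of 19 cell cycle genes of any array, 8.75. The other arrays read 9.33 to 9.42 for neurons and up to 9.13 for cell cycle. The part of cell makeup in the ephrin values was not tested. In bulk RNA, fewer cells of a type and less RNA per cell cannot be told apart.

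Among the ephrins, the B class ligands Efnb1 and Efnb2 were higher in Olig2 ko at all 7 probe sets, by 0.10 to 0.97. The largest differences in the family were among these, and 50.5% of all 22565 kept probe sets were higher. Probe sets of 1 gene are not independent. The kept A class probe sets and Efnb3 differed by -0.35 to 0.29. None of the 14 kept ephrin probe sets passed the adjusted threshold, and neither did any of the 22565 probe sets (0%), for which 0.511 was the smallest adjusted p. At an unadjusted limma p under 0.05 there were 6 ephrin probe sets, all higher in Olig2 ko, where 4.98% of all probe sets were higher and 4.42% were lower. This count of 6 was 2 when KO2, KO4 or WT1 was left out, 3 without WT5 and 8 without WT4. Not all of these were higher: Efnb3 was lower among the 3 and Efna2 1444606_at among the 8. The count over all 22565 probe sets moved too, from 2121 to 3490 without WT4. It was 2392 without KO2, 1205 without KO4, 1402 without WT1 and 1526 without WT5. Of the 6, 5 were B class probe sets of Efnb1 and Efnb2 and 1 was of Efna1, which passed the filter through 3 Olig2 ko arrays and 1 Olig2 wt array and so is no support for a direction.

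**Figure D1:**
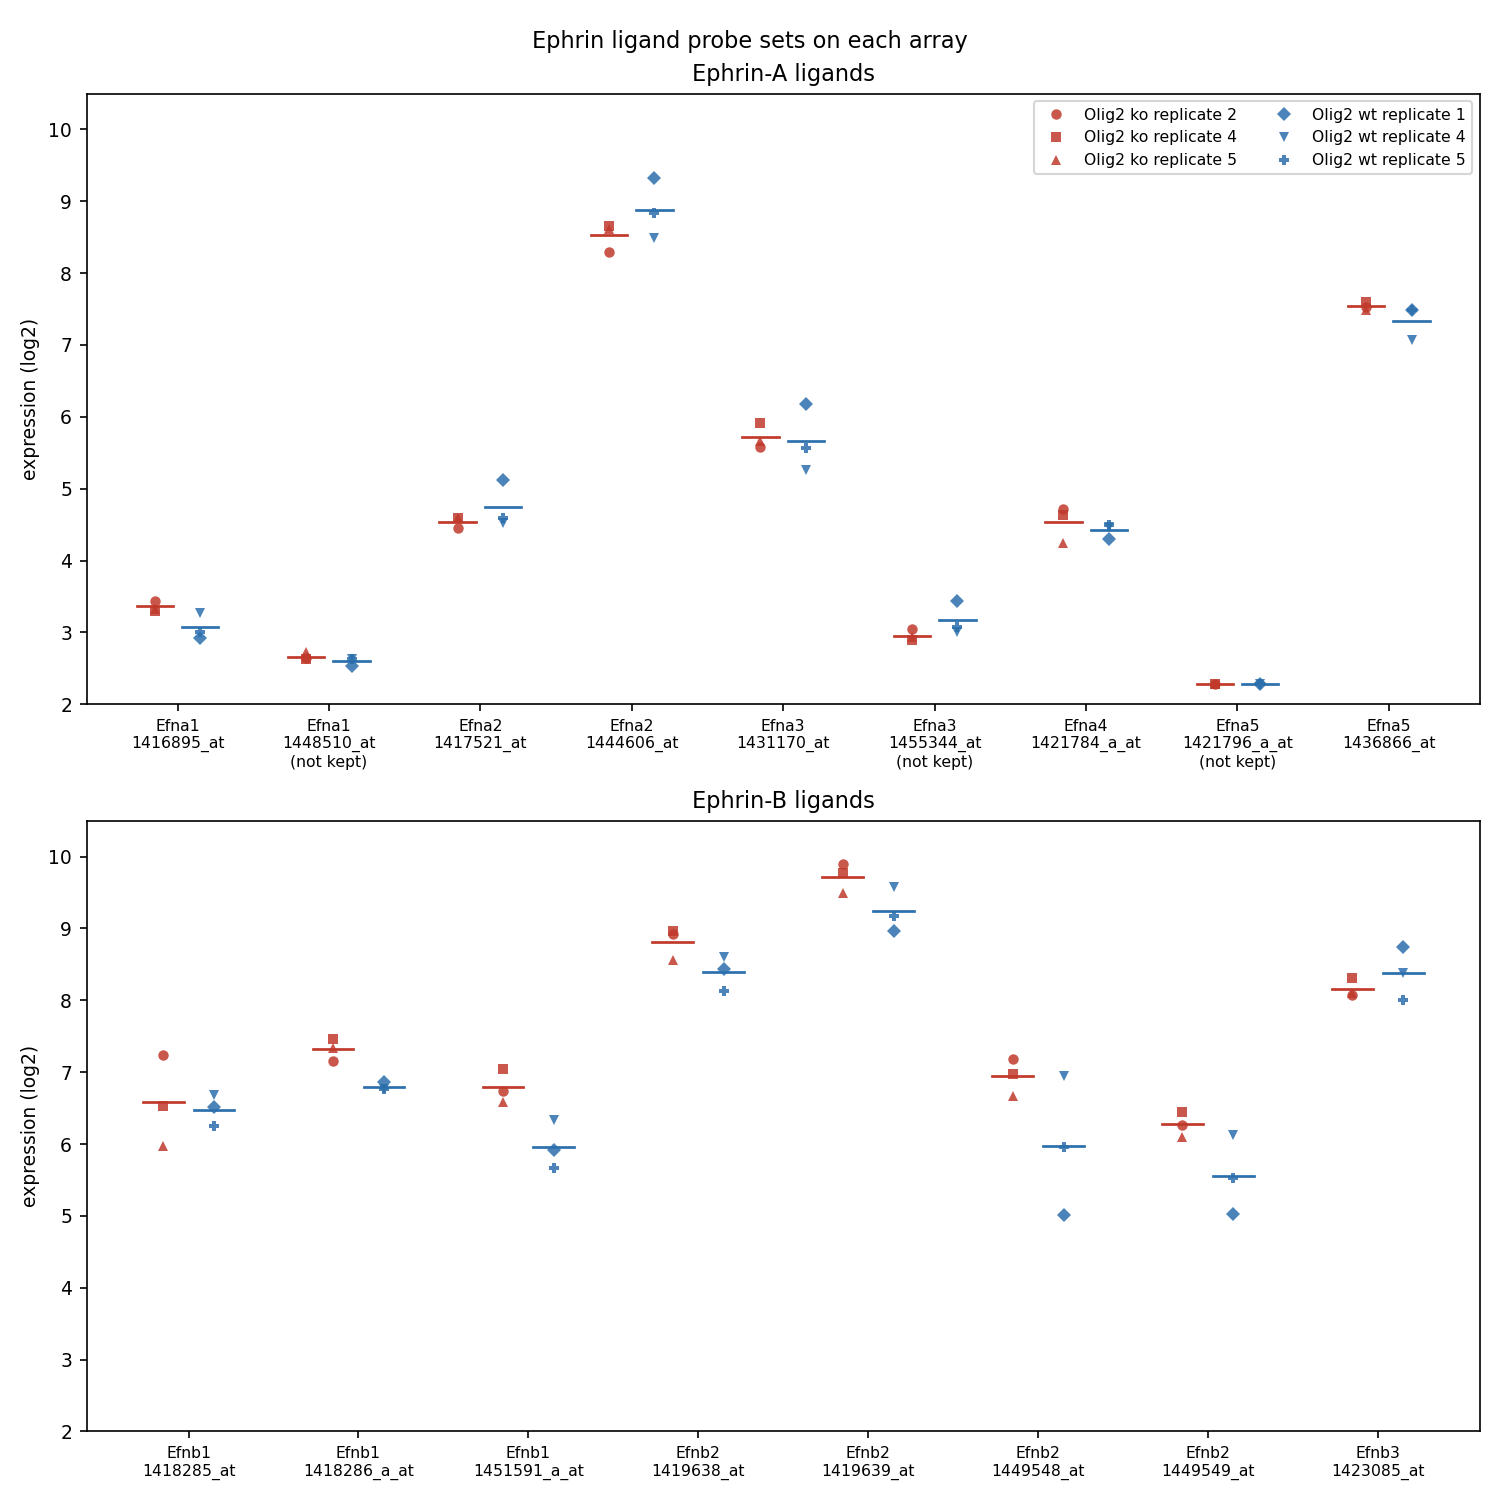
Log2 expression of the ephrin probe sets on each array, with Olig2 ko points left of Olig2 wt points and bars at the group means. At the Efnb1 probe sets 1418286_a_at and 1451591_a_at all Olig2 ko points lie above all Olig2 wt points, while at the Efnb2 probe sets WT4 lies above KO5.

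The start regions of 3 ephrin genes are shown because Efnb1 and Efnb2 had the largest differences and Efna2 was lower at both of its probe sets. Each is the 250 bases before the annotated start, 5′ to 3′ on the gene's strand, from RefSeq on GRCm38.p6. The Efnb1 window is chrX:99135811-99136060 on the plus strand, the Efnb2 window is chr8:8661243-8661492 on the minus strand and the Efna2 window is chr10:80179232-80179481 on the plus strand. Capitals mark E-boxes, the sequence CANNTG that basic helix-loop-helix factors such as Olig2 bind.
Efnb1: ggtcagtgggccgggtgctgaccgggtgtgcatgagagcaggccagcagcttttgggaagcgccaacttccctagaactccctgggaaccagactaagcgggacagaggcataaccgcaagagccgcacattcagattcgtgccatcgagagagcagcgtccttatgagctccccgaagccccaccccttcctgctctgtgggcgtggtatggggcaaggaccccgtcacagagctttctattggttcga
Efnb2: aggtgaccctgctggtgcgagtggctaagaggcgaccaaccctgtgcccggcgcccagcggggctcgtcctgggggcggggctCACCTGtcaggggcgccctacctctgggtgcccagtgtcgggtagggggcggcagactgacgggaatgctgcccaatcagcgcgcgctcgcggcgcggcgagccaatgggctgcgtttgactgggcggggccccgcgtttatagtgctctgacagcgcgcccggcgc
Efna2: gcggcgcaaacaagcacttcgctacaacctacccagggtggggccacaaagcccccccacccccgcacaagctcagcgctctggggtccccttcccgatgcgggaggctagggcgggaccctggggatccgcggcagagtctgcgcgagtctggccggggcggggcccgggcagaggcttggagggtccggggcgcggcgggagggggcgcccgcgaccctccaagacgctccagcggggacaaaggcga
CANNTG reads as CANNTG on the other strand too, so both strands were covered. The Efnb2 window held 1 match, CACCTG, whose first base lies 167 bases before the start, and the Efnb1 and Efna2 windows held none. Of 32851 windows of this length over all genes, 66.2% held at least 1 CANNTG. Windows were found for 7 ephrin genes, 9 windows in all, and 2 of these 9 held a match, 1 of Efna3 and that of Efnb2. The forms CAGCTG and CATATG, both CANNTG matches, occurred in 13.0% and 3.46% of all windows and in none of the 9 ephrin windows. CATCTG, or CAGATG as it reads on the other strand, occurred in 14.4% of all windows and in the Efna3 window. GC content was 60.0% in the Efnb1 window, 72.0% in the Efnb2 window and 73.6% in the Efna2 window, against a median of 52.4% over all windows. These matches describe the letters of the windows only, and say nothing on binding.

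Efnb1 encodes a transmembrane ephrin, known for its part in craniofacial development and callosal axon growth. Its probe set 1418286_a_at read 7.16, 7.46 and 7.34 on KO2, KO4 and KO5, against 6.86, 6.76 and 6.76 on WT1, WT4 and WT5. The groups did not overlap, and the 3 Olig2 wt arrays lay close together. The mean was 7.32 ± 0.15 in Olig2 ko and 6.79 ± 0.06 in Olig2 wt (SD, n = 3 each), a difference of 0.53 (SE 0.10, 95% interval 0.29 to 0.76, 1.44-fold). Limma gave an unadjusted p of 0.00181 and an adjusted p of 0.511. The difference ranged between 0.46 and 0.61 with each array left out in turn.

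The second Efnb1 probe set, 1451591_a_at, read 6.74, 7.05 and 6.58 in Olig2 ko, against 5.91, 6.33 and 5.66 in Olig2 wt. The lowest Olig2 ko array, KO5, was still above the highest Olig2 wt array, WT4. Its difference was 0.83 (SE 0.21, 95% interval 0.31 to 1.34, 1.77-fold, limma adjusted p = 0.511), from 6.79 ± 0.24 in Olig2 ko and 5.96 ± 0.34 in Olig2 wt (SD, n = 3 each). It stayed between 0.67 and 1.01 with each array left out. The third Efnb1 probe set, 1418285_at, read 7.24, 6.53 and 5.97 in Olig2 ko, against 6.51, 6.68 and 6.25 in Olig2 wt. KO2 was the highest and KO5 the lowest of all 6 arrays, so the Olig2 wt arrays lay inside the Olig2 ko range. Its difference was 0.10 (SE 0.33, 95% interval -0.71 to 0.90), and it was -0.23 without KO2 and 0.41 without KO5.

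The probe sets of Efnb1 thus gave differences between 0.10 and 0.83. The contrast between them was tested on each array's own difference between probe sets. The value of 1451591_a_at over 1418285_at averaged 0.21 ± 0.61 in Olig2 ko and -0.52 ± 0.14 in Olig2 wt (SD, n = 3 each), a difference of 0.73 (exact two-sided permutation test, p = 0.2). An exact test of 3 arrays against 3 cannot go below 0.1, so it could not pass 0.05 and leaves undecided whether the Efnb1 probe sets differ.

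Efnb2 encodes the transmembrane ligand best known as a marker of arterial endothelium, and it also occurs in neural tissue. Its 4 probe sets were all higher in Olig2 ko. Probe set 1419639_at read 9.90, 9.77 and 9.49 on KO2, KO4 and KO5, against 8.96, 9.58 and 9.18 on WT1, WT4 and WT5. KO2 and KO4 were above every Olig2 wt array, while KO5 was below WT4. The mean was 9.72 ± 0.21 in Olig2 ko and 9.24 ± 0.32 in Olig2 wt (SD, n = 3 each), a difference of 0.48 (SE 0.19, 95% interval 0.01 to 0.95, 1.39-fold, limma adjusted p = 0.511).

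Probe set 1419638_at of Efnb2 read 8.92, 8.97 and 8.56 in Olig2 ko, against 8.44, 8.60 and 8.13 in Olig2 wt. Here too KO5 was the only Olig2 ko array below an Olig2 wt array, WT4, and the difference was 0.42 (SE 0.17, 95% interval 0.01 to 0.84, 1.34-fold). Probe set 1449549_at read 6.27, 6.45 and 6.10 in Olig2 ko, against 5.03, 6.12 and 5.53 in Olig2 wt. Its difference was 0.71 (SE 0.28, 95% interval 0.02 to 1.41, 1.64-fold), and 0.45 without WT1, which was the lowest array. Probe set 1449548_at read 7.18, 6.97 and 6.67 in Olig2 ko, against 5.01, 6.94 and 5.96 in Olig2 wt. WT1 stood far below the other arrays there, and the difference of 0.97 (SE 0.48, 95% interval -0.21 to 2.15) was 0.49 without WT1 and 1.45 without WT4.

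At each of the 4 Efnb2 probe sets, 8 of the 9 pairs of 1 Olig2 ko and 1 Olig2 wt array had the Olig2 ko value higher, and the exception each time was KO5 against WT4. Leaving out either KO5 or WT4 therefore ends the overlap at all 4 probe sets. This follows from that 1 pair of arrays and is no further support. The Pearson correlation between Efnb2 probe sets over the 6 arrays ran between 0.68 and 0.97 over 6 pairs, as a description of points that share the same arrays. Efnb2 averaged over its probe sets deviated from the Olig2 wt mean by 0.78, 0.75 and 0.41 on KO2, KO4 and KO5, and by -0.43, 0.52 and -0.09 on WT1, WT4 and WT5. The 14 endothelial and pericyte genes measured, 17 being listed, averaged 4.71 to 4.85 in Olig2 ko and 4.70 to 4.83 in Olig2 wt, a difference of 0.00, with Cdh5, Tie1 and Cspg4 too dim to be kept. This mean covers unlike members. Of their 19 probe sets, 9 were higher and 10 lower in Olig2 ko, with differences of -0.52 to 0.70. Wholly above the Olig2 wt arrays lay 2 of the 19 and wholly below lay 0, against 8.96% and 7.25% of all probe sets. The part of these genes in the Efnb2 values was not tested.

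**Figure D2:**
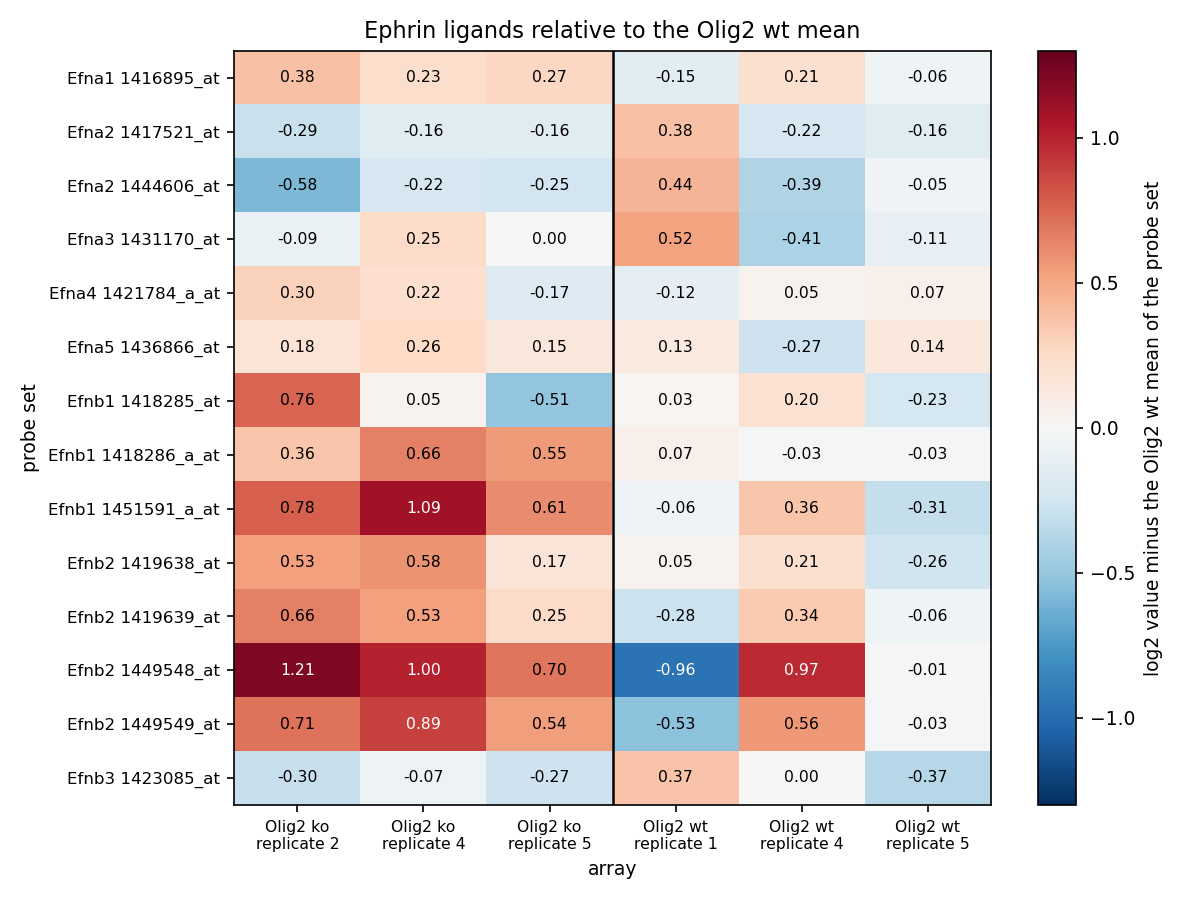
Each cell is the log2 value of a kept ephrin probe set (rows) on an array (columns) minus the Olig2 wt mean of that probe set, red above 0 and blue below, with Olig2 ko columns left of Olig2 wt columns. The median over the B class rows was 0.69, 0.62 and 0.39 on KO2, KO4 and KO5 and -0.02, 0.28 and -0.15 on WT1, WT4 and WT5.

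Efnb3 encodes the third transmembrane ephrin, known as a midline barrier for corticospinal axons. It read 8.08, 8.31 and 8.10 in Olig2 ko, against 8.74, 8.38 and 8.01 in Olig2 wt. WT1 was the highest array and WT5 the lowest, and the groups overlapped. The difference was -0.21 (SE 0.19, 95% interval -0.69 to 0.27, limma adjusted p = 0.645), the sign opposite to that of all 7 Efnb1 and Efnb2 probe sets, with an interval that spans 0. It was -0.03 without WT1 and -0.40 without WT5.

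Efna1, known from endothelium and tumours, was the A class ligand with the lowest p. Its probe set 1416895_at read 3.44, 3.30 and 3.33 on KO2, KO4 and KO5, against 2.92, 3.27 and 3.01 on WT1, WT4 and WT5. The groups did not overlap, and the gap between them, KO4 over WT4, was narrow. The difference was 0.29 (SE 0.11, 95% interval 0.02 to 0.57, 1.22-fold, limma adjusted p = 0.511). Its values are dim, close to the array medians of 3.14 to 3.19. The other Efna1 probe set, 1448510_at, was not kept and read 2.63 to 2.72 in Olig2 ko, against 2.53 to 2.63 in Olig2 wt, with the same value on 3 arrays.

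Efna5, which guides retinal and thalamic axons, read 7.53, 7.60 and 7.49 in Olig2 ko, against 7.48, 7.07 and 7.48 in Olig2 wt at probe set 1436866_at. The groups did not overlap, but KO5 exceeded WT1 and WT5 by little. The difference was 0.20 (SE 0.13, 95% interval -0.12 to 0.51, limma adjusted p = 0.556), and 0.06 without WT4. The other probe set of Efna5 read 2.28 on all 6 arrays and gives no difference to read.

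Efna2, a ligand that helps to order retinal axons, was lower in Olig2 ko at both probe sets. Probe set 1444606_at read 8.29, 8.66 and 8.62 in Olig2 ko, against 9.32, 8.49 and 8.83 in Olig2 wt. WT1 was the highest array, and the groups overlapped at WT4. The difference was -0.35 (SE 0.23, 95% interval -0.92 to 0.22, limma adjusted p = 0.556), and -0.13 without WT1. Probe set 1417521_at read 4.45, 4.59 and 4.59 in Olig2 ko, against 5.12, 4.52 and 4.59 in Olig2 wt, with the same value on KO4, KO5 and WT5. Its difference was -0.20 (SE 0.17, 95% interval -0.63 to 0.22), and it was -0.01 without WT1.

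The remaining A class genes showed differences close to zero. Efna3 (1431170_at) read 5.58, 5.92 and 5.67 in Olig2 ko, against 6.18, 5.26 and 5.56 in Olig2 wt, a difference of 0.06 (SE 0.25, limma adjusted p = 0.934). WT1 and WT4 were its highest and lowest arrays, and without WT1 it was 0.31 and without WT4 -0.15. Its other probe set was not kept and read 2.90 to 3.04 in Olig2 ko, against 3.00 to 3.44 in Olig2 wt. Efna4 (1421784_a_at) read 4.72, 4.64 and 4.25 in Olig2 ko, against 4.30, 4.47 and 4.49 in Olig2 wt, a difference of 0.12 (SE 0.14, limma adjusted p = 0.72). KO5 was below all the Olig2 wt arrays, and without it the difference was 0.26. It was 0.03 without KO2, 0.06 without WT1 and 0.07 without KO4. Efna1, Efna3 and Efna4 are consecutive protein-coding genes on chromosome 3, between Slc50a1 and Adam15 in RefSeq annotation of GRCm38, and their kept probe sets differed by 0.29, 0.06 and 0.12, while the neighbours differed by 0.12 (SE 0.10) for Slc50a1 and by 0.03 (SE 0.07) for the only kept probe set of Adam15.

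**Figure D3:**
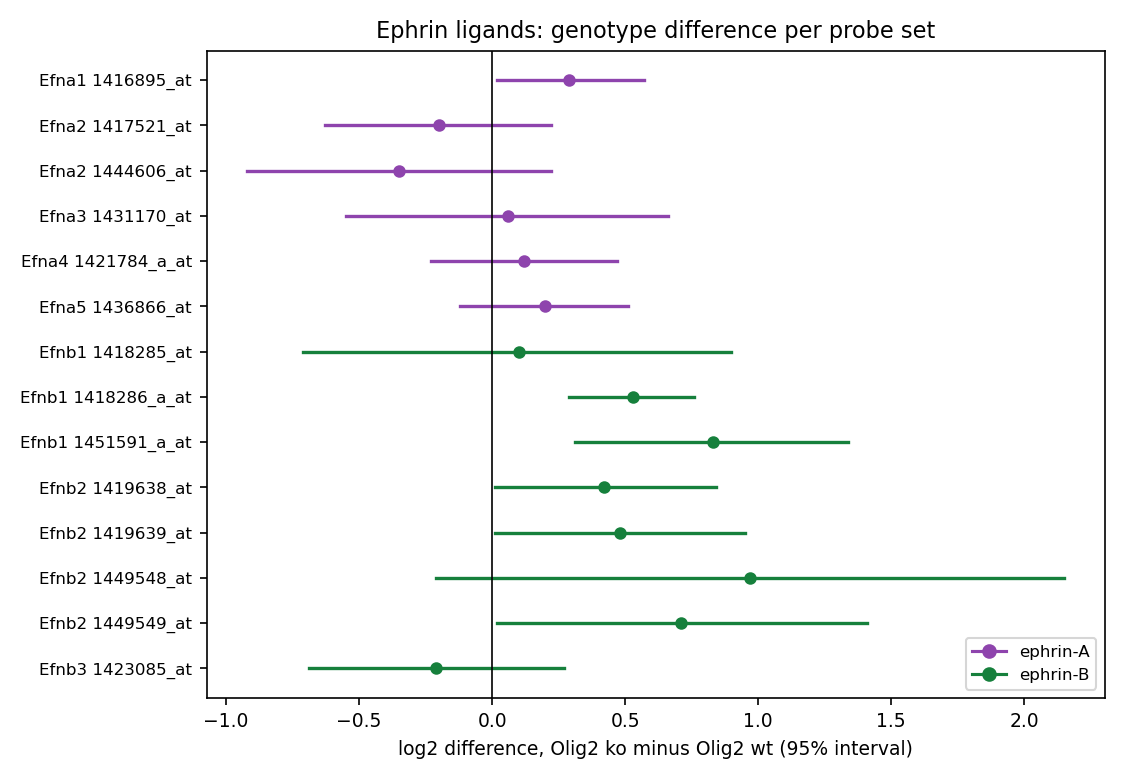
Log2 difference, Olig2 ko minus Olig2 wt, for each kept ephrin probe set, with lines for the 95% interval, purple for the A class and green for the B class. The interval lies above 0 at 6 probe sets and no interval lies below 0.

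Set side by side, the 8 kept B class probe sets had a median difference of 0.50, with a range of -0.21 to 0.97, and the 6 kept A class probe sets had a median of 0.09, with a range of -0.35 to 0.29. Over all 22565 probe sets the median was 0.0. Of the B class, 7 were higher and 1 lower in Olig2 ko. Of the A class, 4 were higher and 2 lower, where 50.5% of all probe sets were higher. Every Olig2 ko array lay above every Olig2 wt array at 2 B class and 2 A class probe sets, where 8.96% of all probe sets did so. Of the A class pair, Efna1 passed the filter mainly through Olig2 ko and is no support, which leaves 1, of Efna5. The 2 of the B class are both of Efnb1. None lay wholly below, against 7.25% of all probe sets. The 4 Efnb2 probe sets are not independent, and without them the B class median was 0.31 over 4 probe sets. The A class median was -0.04 without WT4 and 0.15 without KO5, and the B class median stayed within 0.45 to 0.59 over the 6 omissions. The difference between classes was not given a p-value, since members share genes and were chosen with earlier results known.

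**Figure D4:**
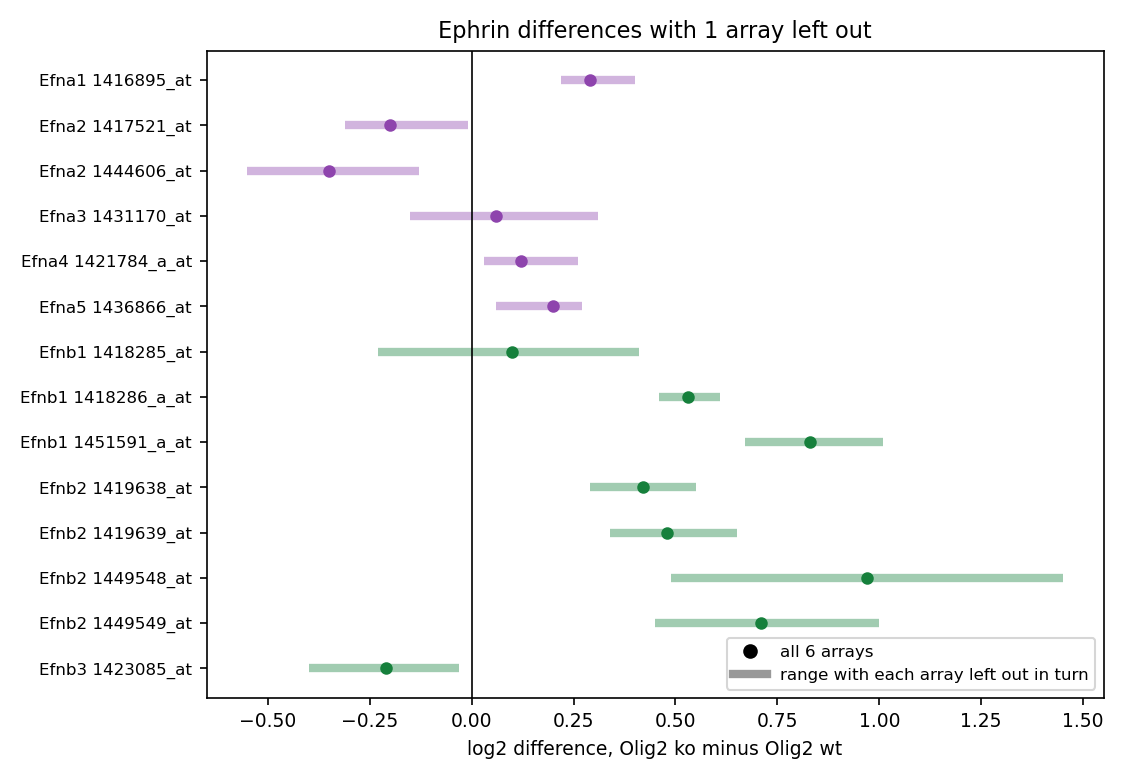
Log2 difference, Olig2 ko minus Olig2 wt, of each kept ephrin probe set. Points are the value on all 6 arrays, bands the range with each array left out in turn, purple for the A class and green for the B class. The Efnb1 probe sets 1418286_a_at and 1451591_a_at stay at or above 0.46, whereas Efnb1 1418285_at and Efna3 cross 0.

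Among pairs of probe sets of the same gene, 10 contrasts were tested over Efnb1, Efnb2 and Efna2. The differences were between 0.06 and 0.73 in size, the groups overlapped in all 10, and the exact permutation p-values were between 0.2 and 0.9, or 0.625 to 0.9 after adjustment over the 10. Since 0.1 is the smallest p this test can give, no contrast could pass 0.05, and the p-values do not show that the probe sets of a gene agree or disagree. The contrast of Efnb2 1449548_at over 1419638_at was 0.55 and was 0.04 without WT1.

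Ephrins act through Eph receptors, of which 16 probe sets of 4 EphA genes and 4 probe sets of 4 EphB genes were kept. Of the EphA probe sets, 11 were higher and 5 lower, and the median difference was 0.20. Wholly above the Olig2 wt arrays lay 5 EphA probe sets, 4 of them of Epha3 alone, and 1 lay wholly below, against 8.96% above and 7.25% below over all probe sets. Epha3, a receptor of ephrin-A5, read 9.98, 9.87 and 9.93 in Olig2 ko, against 9.44, 9.41 and 9.61 in Olig2 wt at 1455426_at. The groups did not overlap, and the difference of 0.44 (SE 0.08, limma adjusted p = 0.511) was 0.34 to 0.99 at its other 3 probe sets. Epha5 read 5.23, 5.63 and 5.67 in Olig2 ko, against 4.44, 5.05 and 4.80 in Olig2 wt at 1420557_at, a difference of 0.74 (SE 0.20), but its other 3 probe sets differed by -0.06 to 0.20. Epha4, which also binds ephrin-B ligands, differed by -0.21 at 1429021_at and by 0.21 to 0.37 at its other 3 probe sets. The 4 EphB probe sets, of the class that binds Efnb1 and Efnb2, had a median of 0.05. Ephb1 and Ephb3 were higher by 0.21 and 0.10, and the value did not vary over the 6 arrays at Ephb4 and Ephb6. Ephb2 was not measured, since no probe set was annotated with its symbol alone. This median therefore does not describe the EphB class as a whole.

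Below the receptors, 57 probe sets of Eph forward signalling had a median difference of -0.04, with 28 higher and 29 lower, 6 wholly above and 11 wholly below the Olig2 wt arrays, against 8.96% above and 7.25% below over all probe sets. Vav3, an exchange factor that couples Eph receptors to Rac, differed by -0.69 (SE 0.13, limma adjusted p = 0.511) at 1417122_at, and by -0.74 to 0.28 at its other 2 probe sets. Kalrn differed by 0.49 at 1 probe set and by -0.74 to 0.08 at its other 6. Rasa1, a Ras GTPase-activating protein, differed by -0.20 at 1 probe set and by 0.05 to 0.09 at its other 2, and Itsn1 by -0.30 at 1 and by -0.21 to 0.11 at its other 5. The 29 probe sets of ephrin-B reverse signalling, the pathway inside the cell that bears Efnb1 or Efnb2, had a median of -0.11, with 12 higher and 17 lower. The adaptor Nck2 differed by 0.29 at 1 probe set and by -0.26 at the other, and Dvl2 by -0.16 and 0.16. The 12 probe sets of ephrin-A co-receptors had a median of -0.13, with 3 higher and 9 lower. Of these 12, 1 lay wholly above and 3 wholly below the Olig2 wt arrays, against 8.96% and 7.25% of all probe sets. The 3 below were 1 probe set each of Ntrk2 (-0.40), Ngfr (-0.24) and Gfra1 (-0.20). The 1 above was another probe set of Ntrk2 or Gfra1. The other 4 of Ntrk2 differed by -0.58 to 0.14 and the other 2 of Gfra1 by -0.03 to 0.34. The 13 probe sets of ephrin and Eph cleavage had a median of 0.10, with 8 higher and 5 lower. Adam10, a protease that sheds ephrins, read 7.46, 7.46 and 7.61 in Olig2 ko, against 5.62, 7.21 and 6.65 in Olig2 wt at 1450104_at, a difference of 1.02 (SE 0.39, limma adjusted p = 0.511), and 0.17 to 0.47 at its other 2 probe sets. None of these probe sets passed the adjusted threshold.

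Likeness of pattern over the 6 arrays was ranked among kept probe sets of other genes with 1 gene symbol. The closest to Efnb1 1418286_a_at were of Nipsnap2, Tmem263 and Rbmx2 (Pearson r of 0.990, 0.989 and 0.989). Those closest to Efna1 1416895_at were of Dph3, Arrdc4 and Tmem30a (0.997, 0.996 and 0.994). Counting also kept probe sets without a single symbol, 66 exceeded 0.95 for Efnb1 and 198 for Efna1. Of the Eph receptors, Epha5 came nearest to Efnb1 at 0.851 and Epha3 nearest to Efna1 at 0.952. With 6 arrays such values are a description and carry no test.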

How the data were processed

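Expression was measured on Affymetrix MOE430 2.0 arrays in 3 Olig2 ko and 3 Olig2 wt samples, grouped by sample title. The deposited values are log2 expression per probe set. Per the labels' design text, the authors handled the images in GCOS and MAS 5.0 and then quantile-normalized and summarised the probes with GCRMA. The submitters' processing notes list these tools without versions. GCRMA leaves a floor, and 33.2% to 33.7% of each array's values lie within 0.03 of the array minimum, so dim probe sets are compressed. Quantile normalization hides a change in total RNA per cell.

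Of 45101 probe sets, 64 were controls. Of the other 45037, 34945 had 1 gene symbol, 932 several and 9160 none here. The 22565 kept were tested with limma 3.58.1 in R 4.3.3 (lmFit, eBayes, two-sided), with Benjamini-Hochberg adjustment at 0.05. This step was tested on simulated data. Contrasts within a gene used an exact permutation test, and gene lists were described by counts and medians. The members and the lists were chosen with earlier results of these data known. All ephrin probe sets and Olig2 are named, then of each signalling list at most 4 genes without overlap, by lowest p, and for the ephrin of lowest p in each class the probe sets nearest in pattern. The 4 EphB genes and the neighbours Slc50a1 and Adam15 fall outside this rule and were named after their values were seen.

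Replicate numbers 4 and 5 occur in both genotypes. No label ties equal numbers to a common litter, and the comparison was made without a block. The alternatives changed the filter, the normalization (quantile again, or median centring), the variance model, the array weights, the replicate block, the summary of a gene and the arrays left out (each in turn, and KO2 with WT4).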

Additional observations from a re-analysis of the deposited data

How the results depend on the processing

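No probe set passed an adjusted p of 0.05 under any alternative tried, and the smallest adjusted p was 0.137, with KO2 left out. The count at an unadjusted p under 0.05 over all probe sets was 2121 and ranged between 1121 and 3490 with each array left out. It was 3491 with array weights, 3276 without KO2 and WT4 together, and 2014 with a replicate block. The count of ephrin probe sets at that p was 6, and was 2 with no filter, between 2 and 8 with each array left out, and 4 with the replicate block. With no filter the count over all 45037 probe sets was 1944. Deviations from the group means correlated at -0.292 for KO4 with WT4 and 0.32 for KO5 with WT5. Pairs with unlike numbers ran from -0.356 (KO2 with WT5) to 0.379 (KO2 with WT4). These values do not decide whether equal numbers mark paired samples.

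Of 14 ephrin probe sets under 14 alternatives, 9 kept their direction throughout, and 10 of 195 values reversed. With the replicate block Efna2 1417521_at was 0.03, Efnb1 1418285_at was -0.22, Efna4 was -0.03 and Efnb3 was 0.01. Efnb2 was 0.37 at 1449548_at, 0.25 at 1419639_at and 0.45 at 1449549_at, against 0.97, 0.48 and 0.71 without the block, and Efna1 was 0.18, against 0.29. The number of KO2 and that of WT1 occur once, so these arrays carry no weight in the blocked difference. With KO2 and WT4 left out Efnb1 1418285_at was -0.13 and Efna3 was -0.08. With each array left out, Efnb1 1418285_at ranged between -0.23 and 0.41 and Efna3 between -0.15 and 0.31. The contrast of Efnb2 1419639_at over 1419638_at ranged between -0.11 and 0.15. The cause of these reversals was not tested. Efna1 did not pass the filter of log2 above 4.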
